A study of Homo sapiens with 9 samples.

Results

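The MYC, MAX and MXD network was described in 9 RNA sequencing libraries of the cell line MV4;11, which comes from a human acute myeloid leukaemia with an MLL rearrangement. The network was taken as 10 named genes, found by their symbols among the 26485 rows of the count table: MYC, MYCN, MYCL, MAX, MXD1, MXI1, MXD3, MXD4, MNT and MGA. All 10 had a row, and 9 passed the filter on low counts, with MYCN the exception. There were 3 untreated genotypes with 3 libraries each: parental cells, cells whose MYC carries K148Q and cells whose MYC carries K148R. A change of lysine to glutamine is a common stand-in for acetylation, and a change to arginine a common block of it. All cells were grown in RPMI, and the parental cells carry no substitution. The labels do not say how the substitutions were made, nor whether the mutant lines are single clones or the libraries separate cultures, so p-values measure only the spread between these libraries.

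Proteins of this network share a basic helix-loop-helix leucine zipper, with which they pair and bind DNA at the E-box, a short palindrome. MYC, MYCN and MYCL bind as partners of MAX and mostly activate transcription. MXD1, MXI1 (also called MXD2), MXD3, MXD4, MNT and MGA compete for MAX and mostly repress, the MXD proteins and MNT by recruiting the SIN3 corepressor and MGA within a variant Polycomb complex. In blood cells MYC is known to fall and MXD1 to rise as myeloid precursors mature.

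The canonical E-box, CACGTG, which reads the same on both strands, was searched in the 250 bases before each RefSeq transcription start (GRCh38.p14). Of 27305 genes with such a window 7.73% held it, as did 6.345% of 35116 windows. Windows of MYC itself were not examined. Among the other members the E-box was present at MXD4 and MNT. It was absent from the 12 windows of MYCN, MYCL, MAX, MXD1, MXI1, MXD3 and MGA. The parts of the windows of MXD4, MNT and MXD1 that lie outside every annotated exon are shown 5′ to 3′ with the E-box in capitals, the first pair because they hold it and MXD1 because it rose most in K148R cells. MYCL, MXI1 and MAX, whose windows hold no E-box, rose in K148R cells as well. A match of letters describes the window and does not show binding.
MXD4 (chr4:2262295-2262359, minus strand): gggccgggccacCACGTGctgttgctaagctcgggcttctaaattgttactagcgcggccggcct
MNT (chr17:2401119-2401310, minus strand): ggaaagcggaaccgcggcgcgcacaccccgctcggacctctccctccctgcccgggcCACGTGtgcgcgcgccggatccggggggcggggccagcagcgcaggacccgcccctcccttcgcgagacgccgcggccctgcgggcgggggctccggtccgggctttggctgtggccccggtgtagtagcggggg
MXD1 (chr2:69914859-69915040, plus strand): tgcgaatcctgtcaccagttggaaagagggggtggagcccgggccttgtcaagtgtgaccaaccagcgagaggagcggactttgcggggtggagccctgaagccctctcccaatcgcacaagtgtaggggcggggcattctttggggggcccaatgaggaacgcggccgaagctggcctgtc
The capitals begin 238 bases before the start at MXD4 and 193 bases before it at MNT. The 182 bases shown for MXD1 hold none.

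The libraries held 13747087 to 18938391 counts. K148Q replicate 3 stood apart from the other K148Q libraries, since the chi-square of its counts over genes, divided by the degrees of freedom, was 17.8 and 18.3 against them and 1.35 between them, and its deviation from the K148Q mean followed the GC content of genes (Spearman correlation -0.75 across 12542 genes, which are not independent). The changes of the members that rest on it are given below with and without it. The K148R libraries also differed more among themselves than the parental ones, with chi-square values of 3.04, 5.29 and 3.84 against 1.55 to 1.63. Deviations from the K148R mean followed GC content in replicates 1 and 3 (Spearman correlation 0.455 and -0.431). The labelled cell type was checked against a list of markers: all 6 myeloid and all 4 MLL-rearranged leukaemia markers reached 1 CPM, while the T cell and epithelial markers summed to at most 0.218 and 0.0678 CPM in any library, B cell markers to at most 3.59 and fibroblast markers to at most 5.82. CD3E, MS4A1 and EPCAM had 0 counts. The 6 myeloid markers summed to 727 to 746 CPM in parental, 1340 to 1400 in K148Q and 2650 to 2680 in K148R libraries, and the leukaemia markers to 828 to 837, 795 to 850 and 497 to 502. Such sums do not show how each marker moved, and the part of these differences in the results below was not tested. With strand unknown, reads of MYCL, MAX, MXI1, MNT and MGA cannot be told from those of opposite-strand genes that overlap their exons.

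In K148R cells the repressor side of the network was higher than in parental cells, apart from MXD3 and MGA. MXD1 was 5.92-fold, MXD4 2.72-fold, MNT 1.96-fold and MXI1 1.93-fold the parental level, and MAX was 1.75-fold. MXD3 went the other way and was 2.44-fold lower. MYC differed by 1.14-fold and MYCL by 2.71-fold. In K148Q cells MYC rose 1.42-fold and was above its K148R level, MXD1 rose 1.65-fold, MNT 1.34-fold and MAX 1.23-fold, and MYCL fell 1.87-fold. MYCL is thus the member called in opposite directions in the 2 mutants, and its difference between them passed the test as well.

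Values are normalised counts relative to library size (CPM, scaled with TMM), given as mean ± SD of n = 3 libraries, and each adjusted p is from the edgeR quasi-likelihood test with Benjamini-Hochberg adjustment over all 12845 tested genes, with calls at an adjusted p under 0.05. Between K148Q and parental cells 7 of the 9 tested members were called, 6 higher and 1 lower, where 53.3% of all tested genes were called, 27% higher and 26.3% lower. Between K148R and parental cells 8 were called, 7 higher and 1 lower, against 75.1% of all genes, 37.8% higher and 37.3% lower. Between K148R and K148Q cells all 9 were called, 6 higher and 3 lower, against 71% of all genes, 36.6% higher and 34.5% lower. The number of calls was therefore not far above that of other genes in a series where most genes differed. The median log2 fold change of the 9 members was 0.20, 0.95 and 0.56 in these 3 comparisons, and that of all tested genes was -0.0072, -0.0035 and 0.02. The comparisons share libraries, so their values are set side by side and not correlated. In bulk RNA, fewer cells of a type and less RNA per cell cannot be told apart.

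**Figure D1:**
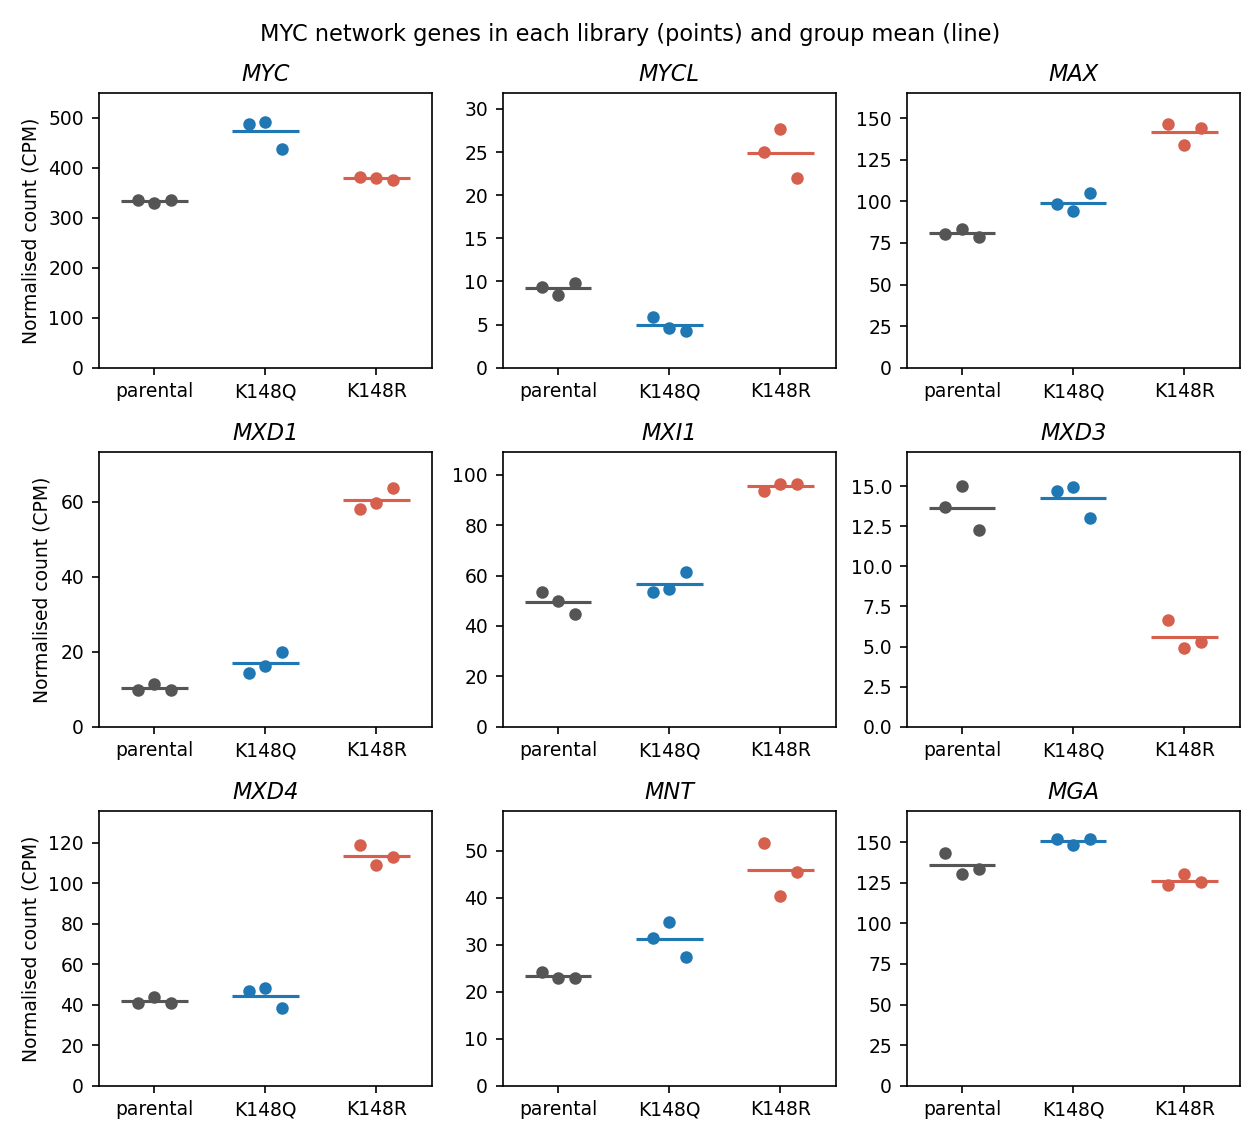
Normalised count (CPM, linear axis from 0, 1 scale per gene) of the 9 tested members in each library, with a line at the mean of each genotype. For MXD1, MXI1, MXD4, MNT and MAX the 3 K148R libraries lie above all others, for MXD3 they lie below all others, and MYCL is lowest in K148Q and highest in K148R.

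Of the activators, MYC (chromosome 8, 127735434 to 127741434) was the member with the highest count in every library, as it is per length. It was at 335, 329 and 336 CPM in parental libraries, at 489, 491 and 439 in K148Q and at 382, 379 and 375 in K148R libraries. The 3 groups did not overlap, with K148Q highest and parental lowest. Its rise in K148Q cells (log2 fold change 0.50, adjusted p = 1.46e-06) was larger than 69.5% of all changes in that comparison, and that in K148R cells (log2 fold change 0.18, adjusted p = 0.0045) larger than 18.1%. Without K148Q replicate 3 the K148Q change was 0.56. With a correction for GC content and length the K148R change was 0.10 (adjusted p = 0.00301). Counts per gene cannot tell the mutant from the normal allele.

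MYCL (chromosome 1, 39895426 to 39902256), the MYC paralogue first found in lung cancer, was at 9.35, 8.39 and 9.83 CPM in parental libraries. It was at 5.93, 4.58 and 4.21 CPM in K148Q and 25, 27.7 and 22 CPM in K148R libraries. Every K148Q library was thus below and every K148R library above the parental range. It fell in K148Q cells (log2 fold change -0.91, SE 0.15, adjusted p = 0.000153) and rose in K148R cells (log2 fold change 1.43, SE 0.126, adjusted p = 8.42e-08). The K148Q change was -0.80 without K148Q replicate 3. The difference between the mutants, 5.07-fold, was the largest of any member in that comparison (log2 fold change 2.34, SE 0.138, adjusted p = 1.05e-09) and exceeded 91.4% of all tested genes in size.

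MYCN (chromosome 2, 15940564 to 15947007), the paralogue known from neuroblastoma, was close to undetected. It had 2, 0 and 0 counts in parental, 0 in each K148Q and 1, 3 and 0 in K148R libraries. In K148Q cells a sum of 0 allows up to 3 counts, or 0.0651 CPM, and the ratio of the 4 K148R counts to the 2 parental counts, 1.92, has a 95% interval of 0.275 to 21.2. Intervals and floors cover counting error only. No difference was detectable at this depth, and the antisense gene MYCNOS, whose exons overlap those of MYCN, had 0 counts in all libraries.

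MAX (chromosome 14, 65006174 to 65102695), the common partner, was at 80.5, 83.5 and 78.4 CPM in parental libraries, at 98.5, 94.3 and 105 in K148Q and at 146, 134 and 144 in K148R libraries. The groups were ordered parental, K148Q and K148R without overlap. It rose in K148Q cells (log2 fold change 0.30, SE 0.0626, adjusted p = 0.00113) and more in K148R cells (log2 fold change 0.81, SE 0.0622, adjusted p = 1.77e-08), and was higher in K148R than in K148Q cells (log2 fold change 0.51, SE 0.0616, adjusted p = 3.05e-06). Its K148Q change without K148Q replicate 3 was 0.27.

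MXD1 (chromosome 2, 69897688 to 69942945), known as MAD1 and as a gene of myeloid differentiation, changed most among the members in K148R cells. It was at 9.71, 11.3 and 9.71 CPM in parental and 14.3, 16.3 and 20 CPM in K148Q libraries. In K148R libraries it was at 58.1, 59.8 and 63.8 CPM. Again the groups did not overlap and K148R stood well above the other two. The change in K148R against parental cells (log2 fold change 2.57, SE 0.115, adjusted p = 3.67e-11) was larger than 92.3% of all changes. That in K148Q against parental cells was smaller (log2 fold change 0.73, SE 0.123, adjusted p = 0.000179), with K148Q replicate 3 the highest of its group, and was 0.60 without that library. K148R cells exceeded K148Q cells 3.59-fold (log2 fold change 1.84, SE 0.109, adjusted p = 1.1e-09). Part of its annotated exons, 237 bases, overlaps SNRNP27, a splicing gene on the same strand, which was lower in K148R than in parental cells (26.2 ± 3.17 against 33.9 ± 0.279 CPM, log2 fold change -0.37, adjusted p = 0.00324).

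MXD4 (chromosome 4, 2247432 to 2262294), the MAD4 gene, was at 40.9, 43.9 and 40.8 CPM in parental libraries. It was at 46.9, 48.1 and 38.5 CPM in K148Q and 119, 109 and 113 CPM in K148R libraries. The lowest library of all was K148Q replicate 3, so K148Q and parental ranges overlapped, while all K148R libraries were far above. It rose in K148R cells against parental cells (log2 fold change 1.44, SE 0.0828, adjusted p = 6.34e-10) and against K148Q cells (log2 fold change 1.35, SE 0.0825, adjusted p = 1.53e-09). In K148Q against parental cells it did not pass (log2 fold change 0.09, SE 0.0851, adjusted p = 0.404), but without K148Q replicate 3 it did (log2 fold change 0.19, adjusted p = 0.00975). With the correction for GC content and length this K148Q change was 0.0019 (adjusted p = 0.978).

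MXI1 (chromosome 10, 110207605 to 110287365), a repressor first described as an interactor of MAX, was at 53.6, 50 and 44.7 CPM in parental libraries, at 53.4, 54.9 and 61.4 in K148Q and at 93.4, 96.3 and 96.4 in K148R libraries. The K148R libraries lay close together above all others, and parental and K148Q libraries overlapped. It was higher in K148R than in parental cells (log2 fold change 0.95, SE 0.0777, adjusted p = 3.63e-08) and than in K148Q cells (log2 fold change 0.75, SE 0.0771, adjusted p = 5.26e-07). In K148Q against parental cells it passed only just (log2 fold change 0.20, SE 0.079, adjusted p = 0.0497), and that call ended in 11 of 20 alternatives, among them the fits without parental replicate 2 or 3, K148Q replicate 2 or 3 or any 1 K148R library, where the adjusted p lay between 0.0596 and 0.236. Without parental replicate 3 the change was 0.13 and without K148Q replicate 3 it was 0.14.

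MXD3 (chromosome 5, 177301461 to 177312757), the member known to be expressed in proliferating cells in S phase, was the only MXD gene to fall. It was at 13.7, 15 and 12.3 CPM in parental and 14.7, 15 and 13 CPM in K148Q libraries, ranges that overlapped (log2 fold change 0.06, SE 0.123, adjusted p = 0.695, and 0.14 without K148Q replicate 3). In K148R libraries it was at 6.64, 4.88 and 5.26 CPM, below every other library. It fell against parental cells (log2 fold change -1.27, SE 0.135, adjusted p = 6.66e-07) and against K148Q cells (log2 fold change -1.34, SE 0.135, adjusted p = 4.55e-07). Annotated exons of MXD3 overlap those of RAB24 on the same strand by 926 bases and those of PRELID1 on the opposite strand by 1158 bases, and the labels do not say how reads in the overlap were counted. RAB24 rose in K148R against parental cells (log2 fold change 0.53, 40.2 ± 1.94 to 58.2 ± 1.59 CPM), and PRELID1 was at 263 ± 2.91 and 265 ± 4.87 CPM.

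MNT (chromosome 17, 2384060 to 2401118), a broadly expressed repressor that also binds MAX, was at 24.2, 22.9 and 23 CPM in parental libraries, at 31.6, 34.8 and 27.4 in K148Q and at 51.6, 40.4 and 45.5 in K148R libraries. The groups did not overlap, and the K148R libraries were the most spread. It rose in K148Q cells (log2 fold change 0.42, SE 0.107, adjusted p = 0.00447) and in K148R cells (log2 fold change 0.97, SE 0.105, adjusted p = 7.49e-07), and was higher in K148R than in K148Q cells (log2 fold change 0.56, SE 0.102, adjusted p = 0.000194). The K148Q change was 0.51 without K148Q replicate 3. Its longest transcript is 61.4% G and C, and with the correction for GC content and length all 3 changes were smaller. They were 0.32 in K148Q and 0.62 in K148R against parental cells and 0.31 between the mutants (adjusted p = 0.00125, 7.65e-08 and 0.000492).

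MGA (chromosome 15, 41621224 to 41773081), a very large protein with a T-box as well as the MAX-binding domain, differed least of the tested members between K148R and parental and between K148R and K148Q cells. It was at 143, 130.4 and 134 CPM in parental libraries, at 152, 149 and 152 in K148Q and at 123, 130.3 and 126 in K148R libraries. K148Q libraries were above all others, and the parental and K148R ranges almost met. It was lower in K148R than in K148Q cells (log2 fold change -0.26, SE 0.0554, adjusted p = 0.000781). Its rise in K148Q against parental cells (log2 fold change 0.15, SE 0.0553, adjusted p = 0.0321) ended in 6 of 20 alternatives, including the fits without parental replicate 2 or 3 (adjusted p = 0.147 and 0.107) and without K148Q replicate 1 or 2 (adjusted p = 0.0817 and 0.0513), and was 0.16 without K148Q replicate 3. In K148R against parental cells it did not pass (log2 fold change -0.10, SE 0.0554, adjusted p = 0.101), while 5 of 20 alternatives called it lower, among them the fit without K148Q replicate 3 (log2 fold change -0.11, adjusted p = 0.0172).

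**Figure D2:**
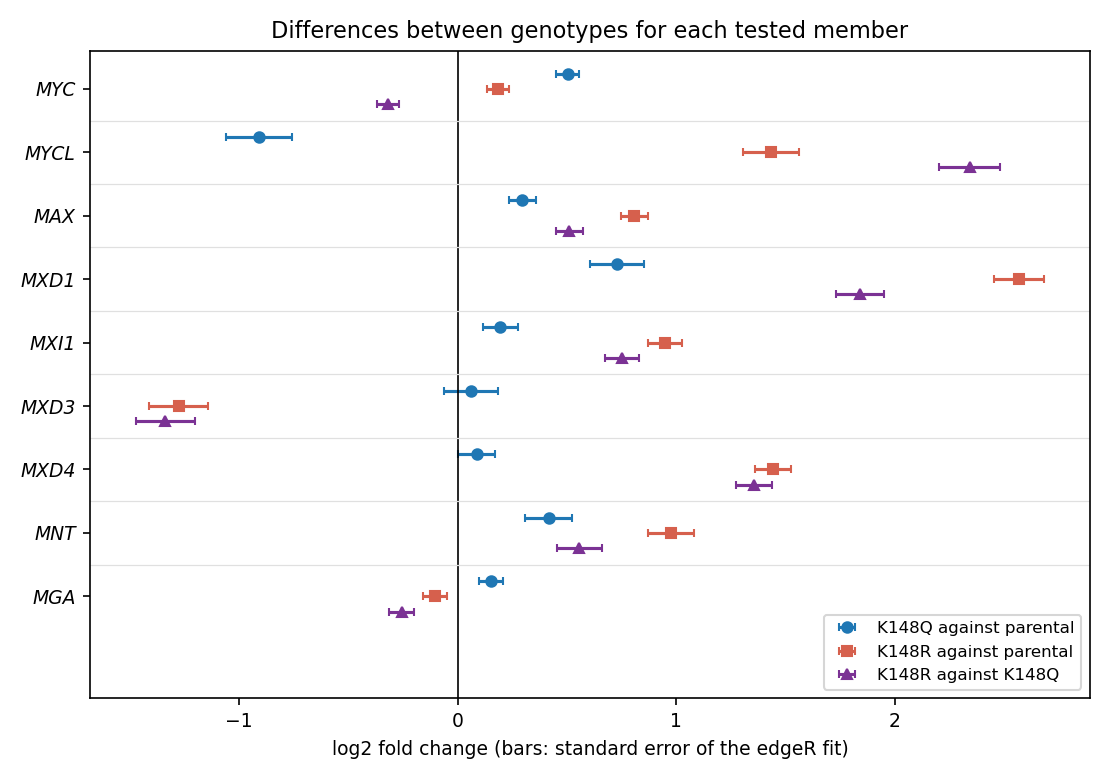
log2 fold change (points) with the standard error of the edgeR fit (bars) for each tested member in the 3 comparisons. MXD1 has the largest K148R against parental change, 2.57, MXD3 lies left of 0 in both K148R comparisons, and MYCL lies on opposite sides of 0 in the 2 comparisons with parental cells.

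The libraries of the 2 groups did not overlap for 6 of 9 tested members between K148Q and parental cells (59.5% of all tested genes), for all 9 between K148R and parental cells (80.6%) and for all 9 between K148R and K148Q cells (71.4%). For MGA in K148R against parental cells that separation was 130.3 against 130.4 CPM. Without K148Q replicate 3 the changes in K148R against K148Q cells were -0.39 for MYC, 2.22 for MYCL, 0.54 for MAX, 1.97 for MXD1, 0.80 for MXI1, -1.41 for MXD3, 1.24 for MXD4, 0.46 for MNT and -0.27 for MGA, and all 9 passed. With the correction for GC content and length the changes in K148R against parental cells were 0.10 for MYC, 1.25 for MYCL and 0.72 for MAX. They were 2.73 for MXD1, 1.16 for MXI1, -1.49 for MXD3, 1.15 for MXD4, 0.62 for MNT and -0.12 for MGA, and each passed.

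Levels of different genes were compared per length, as CPM per kilobase of annotated exon. In parental cells MYC was at 111 ± 1.35 and MAX at 18.2 ± 0.573. The repressors followed, with MXI1 at 10.7 ± 0.974, MGA at 7.7 ± 0.382, MXD4 at 5.93 ± 0.25, MNT at 2.68 ± 0.0806 and MXD3 at 2.65 ± 0.269. MYCL at 1.81 ± 0.145, MXD1 at 1.61 ± 0.143 and MYCN at 0.0154 were last. MNT and MXD3 could not be told apart by the ranges of their libraries, nor MYCL and MXD1, and all other neighbours in this order did not overlap. The order in K148Q cells differed only at its end, where MXD1 (2.66 ± 0.455) stood above MYCL (0.97 ± 0.178) and overlapped MXD3 (2.76 ± 0.207).

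In K148R cells the order changed. After MYC (126 ± 1.13), MAX (31.9 ± 1.53) and MXI1 (20.7 ± 0.364) came MXD4 (16.1 ± 0.735) and MXD1 (9.53 ± 0.463), which moved from the ninth place to the fifth. MGA (7.16 ± 0.199), MNT (5.25 ± 0.645) and MYCL (4.92 ± 0.566) followed, the last pair with overlapping libraries, and MXD3 (1.09 ± 0.179) fell to the ninth. Exon lengths count all annotated isoforms. With the longest transcript instead, MXD4 and MGA changed places in parental and K148Q cells, MNT and MXD3 in parental cells and MNT and MGA in K148R cells, and places 1 to 5 in K148R cells were the same.

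**Figure D3:**
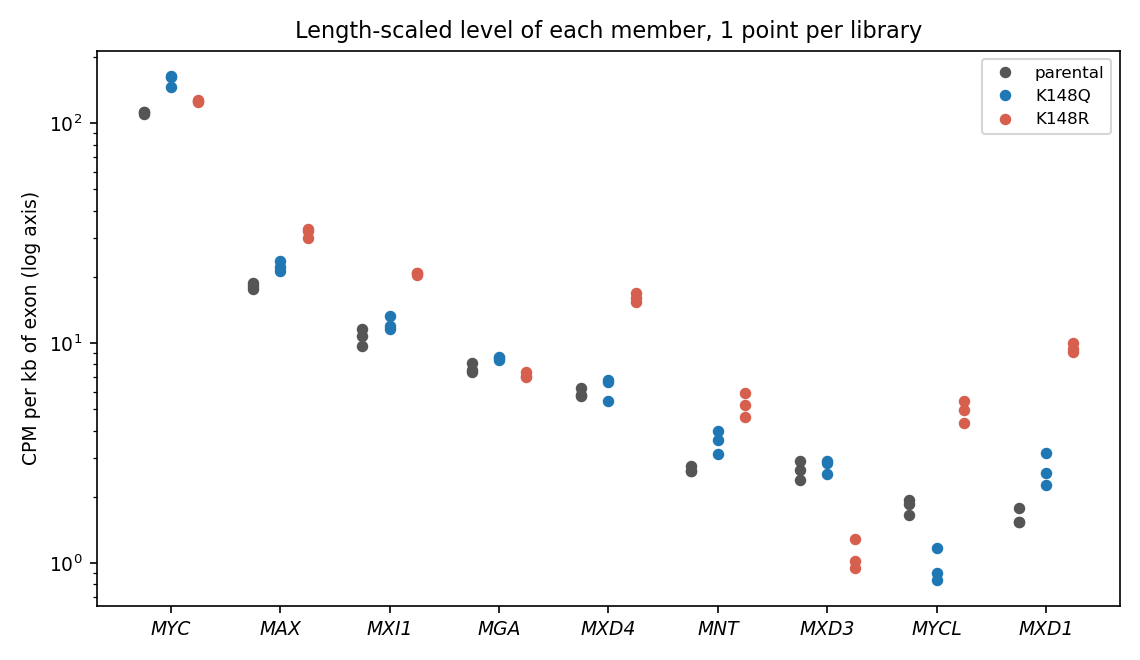
Length-scaled level (CPM per kilobase of exon, log axis) of the 9 tested members, ordered by their parental mean, with 1 point per library. MYC lies above 100 in all libraries, and MXD1 moves from 1.61 in parental to 9.53 in K148R cells, past MNT and MGA.

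Summed per length, the 4 MXD genes were at 20.9 ± 1.33 in parental cells, 24 ± 0.569 in K148Q and 47.4 ± 0.666 in K148R cells. Relative to MYC in the same library, there were 19.3, 19.9 and 17.3 of MXD transcript per 100 of MYC in parental libraries. There were 14.3, 14.8 and 16.7 in K148Q libraries and 37.4, 37 and 38.4 in K148R libraries. Every K148R library was thus above and every K148Q library below the parental ones, and in K148Q cells MYC itself was higher. With MNT and MGA added, the ratio was 28.2 ± 1.53, 23 ± 1.55 and 47.4 ± 0.902 in the 3 genotypes in the same order. MAX was at 16.4 ± 0.709, 14.3 ± 1.68 and 25.3 ± 1.21 per 100 of MYC, and its K148Q and parental libraries overlapped. With the longest transcript as length the MXD ratio was 22.7 ± 1.61, 18.1 ± 1.21 and 42.2 ± 0.802. These sums describe transcripts, not protein, and were not tested.

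**Figure D4:**
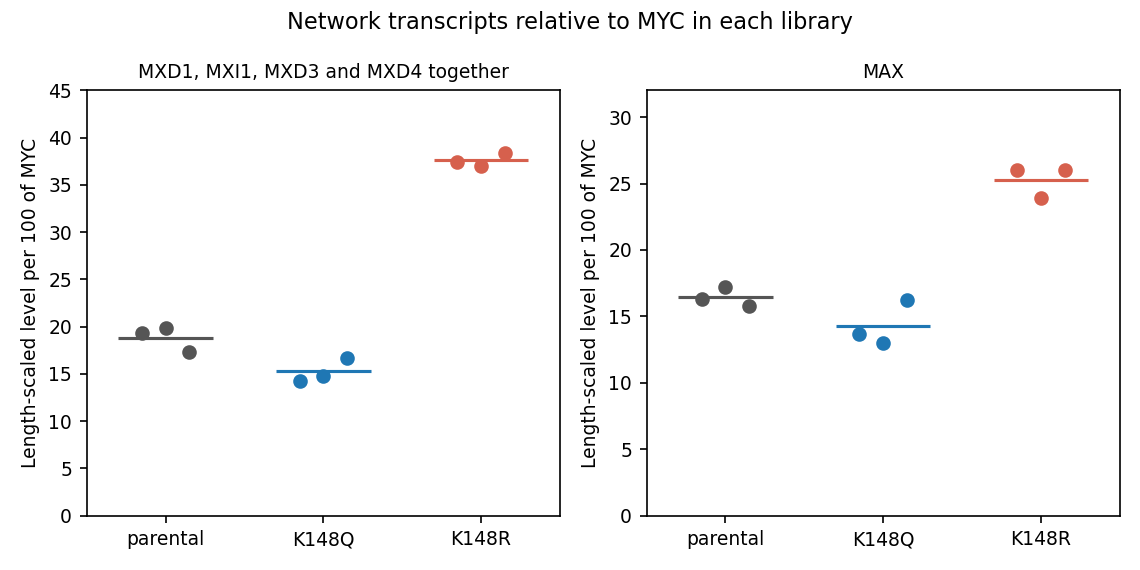
Length-scaled level of the 4 MXD genes together (left) and of MAX (right) per 100 of MYC in each library, with a line at the mean of each genotype, on linear axes from 0. The K148R libraries lie at 37 to 38.4 on the left and 23.9 to 26 on the right, above all libraries of the other genotypes.

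The makeup of the MXD sum differed too. MXI1 gave 51.3% of it in parental cells, 51.1% in K148Q and 43.6% in K148R cells. MXD1 went from 7.7% to 11.1% and 20.1%, MXD4 from 28.4% to 26.3% and 34%, and MXD3 from 12.7% to 11.5% and 2.29%. By these exon lengths MXI1 was thus the leading MXD transcript in every genotype, and the share of MXD1 overtook that of MXD3 in K148R cells. The lead of MXI1 in K148R cells depends on the length used. With the longest transcript MXI1 was at 27.5 and MXD4 at 26.9 there, and in CPM, without length, MXD4 was higher (114 against 95.4).

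MLX is the other common partner of MXD1, MXD4 and MNT, and pairs with the glucose-sensing factors MLXIP (MondoA) and MLXIPL (ChREBP). Of the 5 genes of this arm 3 rose and 2 fell in K148Q against parental cells, 3 rose and 1 fell in K148R against parental cells, and 3 were higher and 1 lower in K148R against K148Q cells. Of all tested genes 27%, 37.8% and 36.6% were called higher and 26.3%, 37.3% and 34.5% lower in these comparisons. MLX rose from 78.2 ± 3.31 CPM in parental to 93.6 ± 5.03 in K148Q and 109 ± 4.38 in K148R cells, and MLXIP from 69.7 ± 5.03 to 86.7 ± 11.9 and 119 ± 6.39. MLXIPL was highest in K148Q cells, at 10.3 ± 1.9 CPM against 3.44 ± 0.181 in parental and 4.39 ± 0.425 in K148R cells. TXNIP, a target of MondoA that restrains glucose uptake, was called in the same directions as MYCL. From 258 ± 1.68 CPM in parental cells it fell to 201 ± 6.51 in K148Q cells (adjusted p = 2.52e-05). In K148R cells it rose to 479 ± 16.9 (adjusted p = 3.42e-10). ARRDC4, the remaining gene of this arm and named after its values were seen, was lower in both mutants than in parental cells. Its log2 fold change was -0.74 for K148Q (adjusted p = 0.000205) and -0.67 for K148R (adjusted p = 0.000221).

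The SIN3 corepressor, with its histone deacetylases, is what MXD proteins and MNT bring to DNA. Of its 15 tested genes 1 rose and 6 fell in K148Q cells, and 3 rose and 8 fell in K148R cells, both against parental cells, and 4 were higher and 8 lower in K148R than in K148Q cells. Without parental replicate 2, parental replicate 3 or K148R replicate 3 the count of rises in K148R cells was 1, and without K148Q replicate 3 that in K148Q cells was 3. Of all tested genes 26.3%, 37.3% and 34.5% were called lower and 27%, 37.8% and 36.6% higher in these comparisons. The median log2 fold changes of the list were -0.14, -0.18 and -0.30. RBBP7 and RBBP4, histone chaperones shared with other complexes, fell in K148R cells from 243 ± 3.26 to 96.7 ± 4.46 and from 491 ± 3.07 to 256 ± 8.22 CPM. ING2, a reader of histone methylation, fell from 16.8 ± 0.694 to 6.2 ± 1.55 CPM. SAP18 went up, from 146 ± 3.98 to 225 ± 6.61 CPM (adjusted p = 5.97e-08). BRMS1 passed in none of the comparisons (55.7 ± 2.72, 61 ± 7.34 and 60.4 ± 3.28 CPM).

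MGA works with E2F6, PCGF6, L3MBTL2 and other proteins in a variant Polycomb complex. Of 10 of these partners 3 rose and 2 fell in K148Q cells and 2 rose and 5 fell in K148R cells against parental cells, and 2 were higher and 5 lower in K148R than in K148Q cells. The count of rises in K148Q cells was 1 without parental replicate 1 or 2 or K148Q replicate 1 or 2, and that of falls was 4 without K148Q replicate 3. The count of rises in K148R cells was 1 without K148R replicate 2. The counts in K148Q cells lie near the 27% higher and 26.3% lower of all tested genes, and in the comparisons of K148R with parental and with K148Q cells 37.8% and 36.6% of all genes were higher and 37.3% and 34.5% lower. PCGF6, the subunit that defines the complex, was at 35, 37 and 36.8 CPM in parental and 11.1, 11.7 and 15.4 CPM in K148R libraries (log2 fold change -1.52, SE 0.155, adjusted p = 9.38e-07). CBX3, a heterochromatin protein, fell from 378 ± 8.32 to 156 ± 15 CPM and TFDP1, the partner of E2F6, from 387 ± 8.1 to 239 ± 8.84 CPM. RYBP fell in K148Q cells, to 27 ± 4.64 CPM, and rose in K148R cells, to 56.8 ± 4.26, from 38.4 ± 0.527. RNF2, a ubiquitin ligase of the complex, passed in none (17.7 ± 2.1, 17.8 ± 4.85 and 21.4 ± 2.76 CPM).

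Of 12 germ cell genes that this complex is known to hold down, 6 had 0 counts in all 9 libraries and 3 were tested. TDRKH, a gene of the piRNA pathway, rose in K148Q cells from 13.4 ± 1.08 to 26.6 ± 1.05 CPM (adjusted p = 8.17e-07) and was at 13 ± 0.798 in K148R cells. SMC1B, a meiotic cohesin, had 134 counts in parental cells, 72 in K148Q and 1 in K148R cells, a ratio of parental to K148R cells, scaled to library size, of 140 (95% interval 24.7 to 5570). STAG3, another meiotic cohesin, was at 1.57 ± 0.332, 1.14 ± 0.374 and 2.89 ± 0.853 CPM, and its rise in K148R cells (adjusted p = 0.00873) ended with the correction for GC content and length.

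Cofactors with which MYC activates genes include the TRRAP acetyltransferase complexes, some of which acetylate MYC itself. Of 17 tested, 7 rose and 3 fell in K148Q cells and 7 rose and 6 fell in K148R cells against parental cells, and 5 were higher and 8 lower in K148R than in K148Q cells. Of all tested genes 27%, 37.8% and 36.6% were called higher and 26.3%, 37.3% and 34.5% lower in these comparisons. The 13 cofactors called in each K148R comparison lie near the 75.1% and 71% of all tested genes that were called. In K148Q cells, where 10 were called, it was 53.3% of all genes. Without K148Q replicate 3 the first pair of counts was 11 and 1, and without any 1 parental library the count of falls in K148Q cells was 1. CREBBP, an acetyltransferase, rose from 45.1 ± 1.31 to 68.5 ± 2.45 in K148Q and 147 ± 2.06 CPM in K148R cells. RUVBL1, RUVBL2 and ACTL6A, subunits of the TIP60 complex, fell in K148R cells, from 197 ± 1.36 to 59.6 ± 0.698, from 324 ± 2.35 to 158 ± 5.49 and from 165 ± 3.55 to 69.8 ± 2.18 CPM. KAT5 (TIP60 itself), TRRAP and EP400, of the same complex and named after their values were seen, did not fall. KAT5 and TRRAP rose in K148R cells, from 52.6 ± 1.59 to 64.5 ± 1.73 and from 128 ± 3.21 to 142 ± 0.967 CPM. EP400 did not pass against parental cells (115 ± 5.51 and 117 ± 6.03 CPM). ZBTB17 (MIZ1), with which MYC represses genes, passed in none (29.1 ± 1.94, 30.9 ± 3.55 and 30.1 ± 2.11 CPM).

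MYC is a short-lived protein, so genes that set its turnover were examined as well. Of 17 listed 16 were tested, and 5 rose and 3 fell in K148Q cells and 4 rose and 7 fell in K148R cells against parental cells, while 3 were higher and 7 lower in K148R than in K148Q cells. Of all tested genes 27%, 37.8% and 36.6% were called higher and 26.3%, 37.3% and 34.5% lower in these comparisons. The list's totals of 8, 11 and 10 called lie near the 53.3%, 75.1% and 71% of all tested genes. With the correction for GC content and length 11 genes of the list fell in K148R cells. In K148Q cells the rises numbered 3 without parental replicate 1 or 3, and the falls 5 without K148Q replicate 3. SKP2, a ubiquitin ligase subunit for MYC that also serves the cell cycle, fell in K148R cells from 85.6 ± 0.938 to 12.2 ± 0.944 CPM. KIAA1524 (CIP2A), an inhibitor of the phosphatase that destabilises MYC, fell from 58.4 ± 0.746 to 5.99 ± 1.25 CPM. The mitotic kinases AURKA and PLK1, which stabilise MYC family proteins, fell from 80 ± 3.35 to 20.6 ± 0.863 and from 108 ± 1.87 to 21.5 ± 2.07 CPM, and both rose in K148Q cells, to 92.4 ± 1.21 and 156 ± 13.9 CPM. FBXW7, the main ubiquitin ligase of phosphorylated MYC, passed in none (28.4 ± 1.39, 29 ± 3.8 and 27 ± 0.752 CPM), nor did FBXL14, another ubiquitin ligase subunit (9.41 ± 0.896, 11.6 ± 1.72 and 10.4 ± 1.41 CPM).

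A short list of E-box genes known as targets of MYC, and of MXD1 in the case of TERT, was examined last. It was chosen with earlier results of these data known, so its counts describe these genes and are not an independent test. Of 12, 2 rose and 8 fell in K148Q cells and 1 rose and 11 fell in K148R cells against parental cells, and 2 were higher and 9 lower in K148R than in K148Q cells. In these comparisons 26.3%, 37.3% and 34.5% of all tested genes were called lower and 27%, 37.8% and 36.6% higher. The median log2 fold changes of the list were -0.38, -0.71 and -0.37, and with TERT at its bound the median is the same. TERT, the catalytic subunit of telomerase, was at 15.2, 15.8 and 15.2 CPM in parental and 3.19, 2.94 and 1.74 CPM in K148Q libraries and had 0 counts in all K148R libraries. That is at least 253-fold lower in K148R than in parental cells, against a floor of 3 counts over the group. LDHA, lactate dehydrogenase A, fell from 1227 ± 14.4 to 899.9 ± 31.2 in K148Q and 553 ± 12.4 CPM in K148R cells. CAD, which starts pyrimidine synthesis, rose in K148Q cells and fell in K148R cells (255 ± 2.47, 333 ± 31.7 and 104 ± 5.33 CPM in parental, K148Q and K148R cells). CDK4, the G1 kinase, was at 252 ± 7.27 and 246 ± 24.8 CPM in parental and K148Q cells and fell to 104 ± 2.56 in K148R cells. The gene that rose in K148R cells was ODC1, which starts polyamine synthesis (274 ± 3.4 to 382 ± 5.16 CPM), named after its values were seen. MYC mRNA was 1.42-fold the parental level in K148Q and 1.14-fold in K148R cells, while most of this list was below its parental level. A link between them was not tested.

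**Figure D5:**
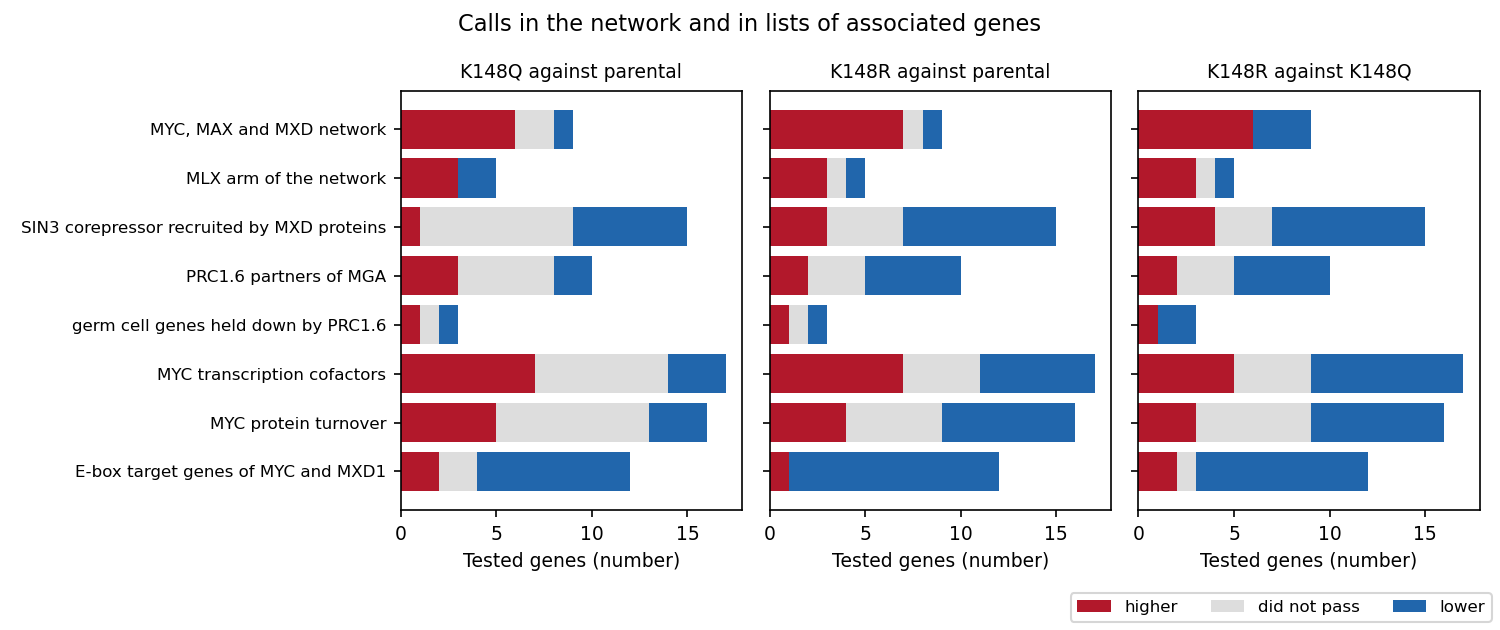
Number of tested genes called higher (red), called lower (blue) or not passing (grey) for the network and 7 lists of associated genes in the 3 comparisons. Of the E-box genes, 11 of 12 are lower in K148R against parental cells, and of the network members 7 of 9 are higher. Members and lists were chosen with earlier results of these data known.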

How the data were processed

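The authors deposited raw read counts per gene symbol, not normalised, with a column per library. Per the submitters' processing notes the tools included HISAT2 2.0.5, featureCounts 1.5.2 and FastQC 0.11.7 with the build GRCh38, while strand, options and annotation were not stated there. The test was that of edgeR 4.0.16, run under R 4.3.3: filterByExpr by group left 12845 genes, scaling was TMM, all 9 libraries were fitted with a term per genotype, and the robust quasi-likelihood F test was used with Benjamini-Hochberg adjustment. The common biological coefficient of variation was 0.0738. The code was tested on simulated counts. Positions and exon lengths are from GENCODE v29, and promoter windows from RefSeq. GC content and length were known for 97.6% of tested genes. Apart from the members, the 4 genes per list with the smallest p in the test over all 3 genotypes, and up to 2 with the highest mean CPM among those that passed in no comparison, were named. A few further genes were named after their values were seen, as stated where they appear. Members and lists were chosen with earlier results of these data known. Alternatives used DESeq2 1.42.0, limma-voom (limma 3.58.1), other scalings and filters, and left out libraries. The result of 1 list of markers of another cell type is not reported here.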

Additional observations from a re-analysis of the deposited data

How the results depend on the processing

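Across 20 alternatives the number of network members called stayed at 9 between K148R and K148Q cells, was 8 or 9 between K148R and parental cells and 5 to 7 between K148Q and parental cells. Leaving out 1 library at a time gave 9, 8 to 9 and 5 to 7. Of 540 recomputed changes of members 516 kept their direction and side of the threshold. In K148Q against parental cells 17 calls were lost, all of MXI1 and MGA, 1 was gained (MXD4) and 1 change turned sign, that of MXD3, which was -0.011 without parental replicate 3 and lay between -0.011 and 0.14 over the fits without a library (adjusted p = 0.341 to 0.958). In K148R against parental cells 5 calls were gained, all of MGA. For these the cause was not tested. Other scalings moved the median change of all genes by between -0.0604 and 0.0367 on the log2 scale. Of 840 recomputed counts of list members 27 differed by over 1.5 times. With the replicate number as a block 7, 8 and 9 members were called for K148Q and for K148R cells against parental cells and between the mutants. The numbers name no shared batch, same-numbered libraries correlated at 0.033, 0.0283 and 0.0701 between parental and K148Q cells, at -0.0121, 0.00691 and 0.0267 between parental and K148R cells and at 0.259, 0.0534 and 0.397 between the mutants, and not every library correlated best with its own number. MYCN, with at most 3 counts in a library, lies at the limit of the depth. The replicate block with GC content and length correction gave 7, 9 and 9.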
